A study of Mus musculus with 16 samples.

Results

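The response of the mouse beta-cell line R7T1 to BayK8644(2a) and Exendin-4 given together was compared with the DMSO vehicle at 0.5, 2, 6 and 24 h. The comparison was between the 8 arrays titled for the combination or for DMSO, of 16 in the series, with 4 arrays for each of these groups and 1 at each time. The other 8 arrays, 4 with BayK8644(2a) alone and 4 with Exendin-4 alone at the same times, showed which differences were also present with a single agent. They also entered the fits behind the tests, which used all 16 arrays for their error. BayK8644 is a dihydropyridine that favours opening of L-type calcium channels, and the labels do not explain the 2a. Exendin-4, a peptide, is an agonist of the GLP-1 receptor. No dose is stated in the sources used here, and all groups are 1 cell line with no further genotype or treatment stated. With 1 array per treatment and time, the 4 times stood in for replicates, and no label says whether the arrays are separate cultures, so the p-values reflect the spread among these arrays alone, part or all of which could be technical.

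In beta cells, calcium entering through L-type channels activates calmodulin-dependent kinases, calcineurin and the MAP kinase cascade, while the GLP-1 receptor raises cAMP and activates protein kinase A. Both routes can lead to phosphorylation of CREB, a transcription factor that binds the cAMP response element (CRE) in promoters. The immediate-early genes, which need no new protein synthesis to be transcribed, include Fos, Egr and Nr4a family members, and their products in turn regulate later genes.

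Levels are log2 intensities for 1 probe set per gene, and a difference of 1 on this scale is 2-fold. Of 45101 probe sets, those with 1 gene symbol and a log2 level of 4 or more on at least 2 of the 16 arrays gave 10610 genes. A gene could thus enter through treated arrays alone. Egr2, Fosb and Kcnh1, under 4 on all DMSO arrays, are examples, so their tests are not independent of the filter. The same may hold for other genes with DMSO levels under 4, among them Rrad, Etv4 and Cxcl12. Below 4, values approach the method's floor, and the fold of a gene that rises from such a level depends partly on that floor. Median intensity per array lay between 10.5 and 11.6. Of 7 listed beta-cell markers, Ins1 and Mafa were not among the genes measured. On the 8 arrays Ins2, an insulin gene, lay between 15.65 and 15.79. Pdx1, a transcription factor of beta cells, lay between 13.22 and 13.43. Slc2a2, a glucose transporter gene, was lower, between 7.14 and 7.92. Cela1, an acinar gene, lay between 8.95 and 9.60 and did not differ past the threshold (0.07, adjusted p = 0.641 in limma). The alpha-cell hormone gene Gcg lay between 9.08 and 10.06 on the same arrays and was higher with both agents over the times (0.49, adjusted p = 0.0312 in limma).

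With both agents, 34 genes stood at least 2-fold above DMSO at 0.5 h, led by immediate-early genes, and the list was mostly replaced by 24 h. The numbers at least 2-fold higher were 34, 74, 72 and 89 at 0.5, 2, 6 and 24 h, or 0.32, 0.697, 0.679 and 0.839% of the genes tested. Of these, 3, 11, 14 and 19 rose from a DMSO level under log2 4, where the fold depends partly on the floor. Those at least 2-fold lower numbered 5, 28, 26 and 26, or 0.0471, 0.264, 0.245 and 0.245%. For comparison, BayK8644(2a) alone gave 18, 62, 43 and 61 genes higher and 2 (0.0189%), 17, 39 and 46 lower. Exendin-4 alone gave 8, 20, 8 and 31 higher and 7, 9, 16 and 35 lower. A 2-fold difference between 2 single arrays carries no test.

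**Figure D1:**
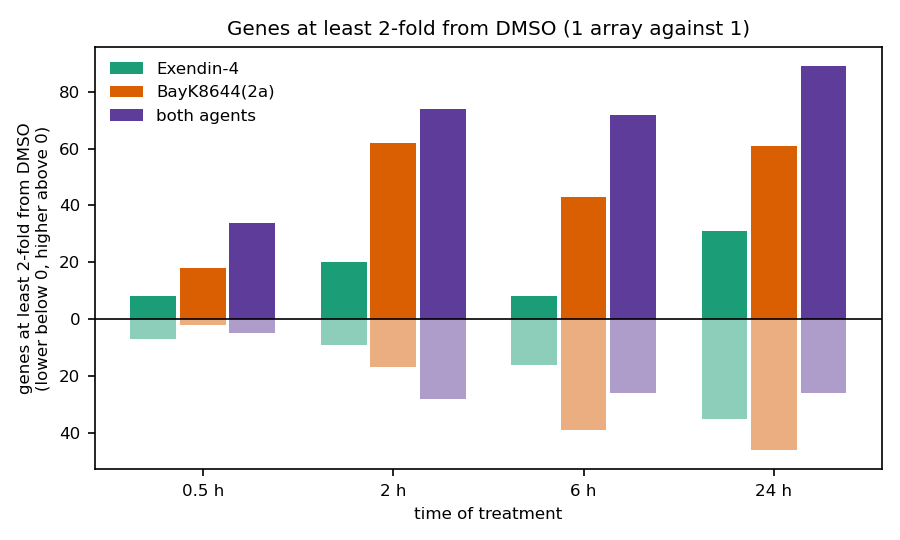
Number of genes at least 2-fold above (up) or below (down) DMSO at each time in h, for the combination and for each agent alone. The combination has 34 genes higher at 0.5 h and 89 at 24 h, more than either agent alone at each of the 4 times.

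In limma, with the error pooled over the times, 20 genes were higher and 0 lower with both agents at 0.5 h (0.189% called, adjusted p under 0.05). At 2 h, 79 were higher (0.745%) and 17 lower (0.16%), together 0.905% called. At 6 h, 68 were higher (0.641%) and 20 lower (0.189%), together 0.829%, and at 24 h 126 were higher (1.19%) and 66 lower (0.622%), together 1.81% called. Genes that rose thus made up 100% of the calls at 0.5 h, 82.3% at 2 h, 77.3% at 6 h and 65.6% at 24 h. Because the error is pooled, a single array bore on the counts of other times. With any 1 array of 0.5 h left out, 40 or 41 genes were called at 2 h, 33 to 36 at 6 h and 53 at 24 h. With any 1 array of 24 h left out, 152 or 153 were called at 2 h and 321 to 324 at 6 h, and without the BayK8644(2a) or the Exendin-4 array of 24 h, 516 or 517 at 24 h. At 6 h 48 were called without the BayK8644(2a) or the Exendin-4 array of that time, and at 24 h 116 to 121 without any 1 array of 2 h and 94 without any 1 of 6 h. The calls at 0.5 h stayed between 18 and 21. At 0.5 h, 284 genes had an unadjusted p under 0.05 where chance alone gives about 530. The times did not contribute evenly to the pooled error of this fit at each time. Of its residual sum of squares, 12.1% was at 0.5 h and 39.4% at 24 h. The same pooled error was thus applied to times of unlike spread.

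Nr4a1, an orphan nuclear receptor, Fos and Fosb, subunits of the AP-1 transcription factor, and Npas4, a calcium-dependent transcription factor, were among the largest early rises. That of Egr2, described below, was larger still, and Egr2 is not among the stretches shown. Nr4a3, of the same family as Nr4a1, reached 2-fold at 0.5 h only with both agents. The stretches below are shown because these are genes that moved first, or in the case of Tac1 and Sst later, and because TGACG, the half-site of a CRE, is found in each. Each is a stretch of 100 bases that lies upstream of the gene start, on the gene's strand, from RefSeq on build GRCm38.p6, with TGACG or its reverse complement CGTCA in capitals. For Sst, which encodes somatostatin and whose promoter holds a textbook CRE, the capitals mark the full TGACGTCA.
Nr4a3: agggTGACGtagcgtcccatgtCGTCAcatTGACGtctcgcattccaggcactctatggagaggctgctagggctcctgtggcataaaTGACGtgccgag
Nr4a1: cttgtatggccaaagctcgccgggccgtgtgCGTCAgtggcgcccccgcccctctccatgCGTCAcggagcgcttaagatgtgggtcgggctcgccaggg
Fos: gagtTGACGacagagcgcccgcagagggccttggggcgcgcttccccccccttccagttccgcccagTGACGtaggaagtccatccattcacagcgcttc
Npas4: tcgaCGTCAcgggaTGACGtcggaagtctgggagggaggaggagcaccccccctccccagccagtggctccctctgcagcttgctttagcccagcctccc
Tac1: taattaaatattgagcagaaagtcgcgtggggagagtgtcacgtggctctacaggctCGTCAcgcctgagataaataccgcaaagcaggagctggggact
Sst: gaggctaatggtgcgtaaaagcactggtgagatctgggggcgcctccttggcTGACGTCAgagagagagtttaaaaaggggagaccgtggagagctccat

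The Nr4a3 stretch lies at chr4:48045070-48045169 on the plus strand and holds 4 half-sites; it runs from 235 to 136 bases upstream of the start. The Nr4a1 stretch lies at chr15:101266746-101266845 (plus strand) and the Fos stretch at chr12:85473757-85473856 (plus strand, from 133 to 34 bases upstream), each with 2. Npas4, with 2 half-sites, is at chr19:4990055-4990154 on the minus strand, from 183 to 84 bases upstream. The stretches of Nr4a1, Tac1 and Sst end at the base before the start. Tac1 is at chr6:7554961-7555060 (plus strand), with 1, and Sst at chr16:23890845-23890944 (minus strand). The window of Fosl2, also an early gene, held 0 half-sites.

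TGACG was searched on both strands from 250 bases before to 50 after the start of the 8698 measured genes with a promoter in the table. It was found in 37.3% of them. Of the 34 genes 2-fold higher at 0.5 h, 27 had a promoter, and 18 of the 27 (66.7%) held it. Among genes that first reached 2-fold at 2, 6 and 24 h the share was 21.7, 32.1 and 35.1%, so the half-site was most frequent in the earliest group. The full TGACGTCA, which always contains the half-site, was found in 3 of the 27 (11.1%) against 3.82% of all. The AP-1 motif TGANTCA was found in 0 of the 27, in 13.0% of the 46 promoters of the 2 h group and in 5.48% of all. The CArG box, the site of serum response factor, was found in 7.41% of the 27 and in 1.54% of all. These shares are descriptions of windows near the start, and a match is not a bound site.

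Nr4a1 had a log2 level of 9.31, 8.88, 8.99 and 9.37 on the DMSO arrays in order of time and 14.00, 12.17, 11.33 and 10.98 with both agents. All 4 combination arrays lay above all 4 DMSO arrays, and the gap narrowed at each later time, from 25.8-fold at 0.5 h to 3.05-fold at 24 h. The difference was 4.69 at 0.5 h, 3.30 at 2 h, 2.34 at 6 h and 1.61 at 24 h (SE 0.12 each, limma's adjusted p = 1.56e-07, 3.75e-06, 7.92e-05 and 0.00062). With BayK8644(2a) alone Nr4a1 read 11.75 at 0.5 h and with Exendin-4 alone 11.31, so each agent by itself also gave a higher value than DMSO.

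Egr2, a zinc-finger transcription factor, read 3.69, 3.53, 3.71 and 3.73 on the DMSO arrays and 8.51, 3.69, 4.07 and 3.79 with both agents. It was high at 0.5 h alone (difference 4.82, SE 0.22, adjusted p = 1.53e-05 in limma), from a DMSO level near the floor, and BayK8644(2a) alone gave 8.05 there. Fos went from 9.72 on the DMSO array to 13.13 with both agents at 0.5 h, a 10.6-fold difference (3.41, SE 0.14, adjusted p = 7.24e-06 in limma). At 2, 6 and 24 h the combination read 10.49, 10.35 and 10.29 against 9.68, 9.69 and 9.66, so Fos stayed above DMSO by much less than at 0.5 h. Egr1, a relative of Egr2, read 10.56, 10.19, 10.21 and 10.30 on DMSO and 13.85, 11.53, 11.26 and 11.23 with both agents. Its difference passed the test at all 4 times, with adjusted p between 7.18e-05 and 0.0473 in limma.

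Fosb was near the floor on DMSO, at 3.45, 3.23, 3.24 and 3.25, and read 7.66, 5.42, 4.54 and 5.46 with both agents. Npas4 read 5.61, 5.99, 5.48 and 5.47 on DMSO and 8.94, 8.80, 8.44 and 9.11 with both agents. Its difference was 3.33, 2.81, 2.96 and 3.64 in order of time (SE 0.40, adjusted p between 0.00399 and 0.0151 in limma). Unlike those of the genes above, it was not smaller at 24 h than at 0.5 h. Fosl2, another AP-1 subunit, read 4.48, 4.39, 4.96 and 5.81 on DMSO and 7.81, 7.29, 6.88 and 6.63 with both agents. Its gap shrank from 10.1-fold at 0.5 h to 1.77-fold at 24 h, where it did not pass the test (adjusted p = 0.288 in limma).

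Of 31 measured immediate-early transcription factors, 13 rose and 0 fell at 0.5 h, against 0.189% of all genes called. The numbers that rose were 8, 5 and 5 at 2, 6 and 24 h, with 0 that fell at each, against 0.745, 0.641 and 1.19% of all genes called higher. The median difference of the 31 was 1.09, 0.54, 0.32 and 0.26 in order of time, while the median of all genes was between 0.01 and 0.02. Ier2 had a difference of 2.11 at 0.5 h, Klf4 of 1.79 and Junb of 1.70 (adjusted p = 0.000298, 0.000298 and 0.00683 in limma). Of 26 measured cAMP and CREB targets, a list that shares Nr4a1, Nr4a2, Nr4a3, Fos, Fosl2 and Nfil3 with the immediate-early list, 5, 7, 4 and 5 rose in order of time and 0 fell, where 0.189, 0.745, 0.641 and 1.19% of all genes were called higher. Their median was 0.53, 0.56, 0.48 and 0.34. Members that are usual cAMP targets differed from each other. Crem, a relative of CREB, had 0.53, 1.28, 0.92 and 0.19. Pde4d, a cAMP phosphodiesterase, had 0.04, 0.28, 0.09 and 0.19, and none of these values was past the threshold.

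**Figure D2:**
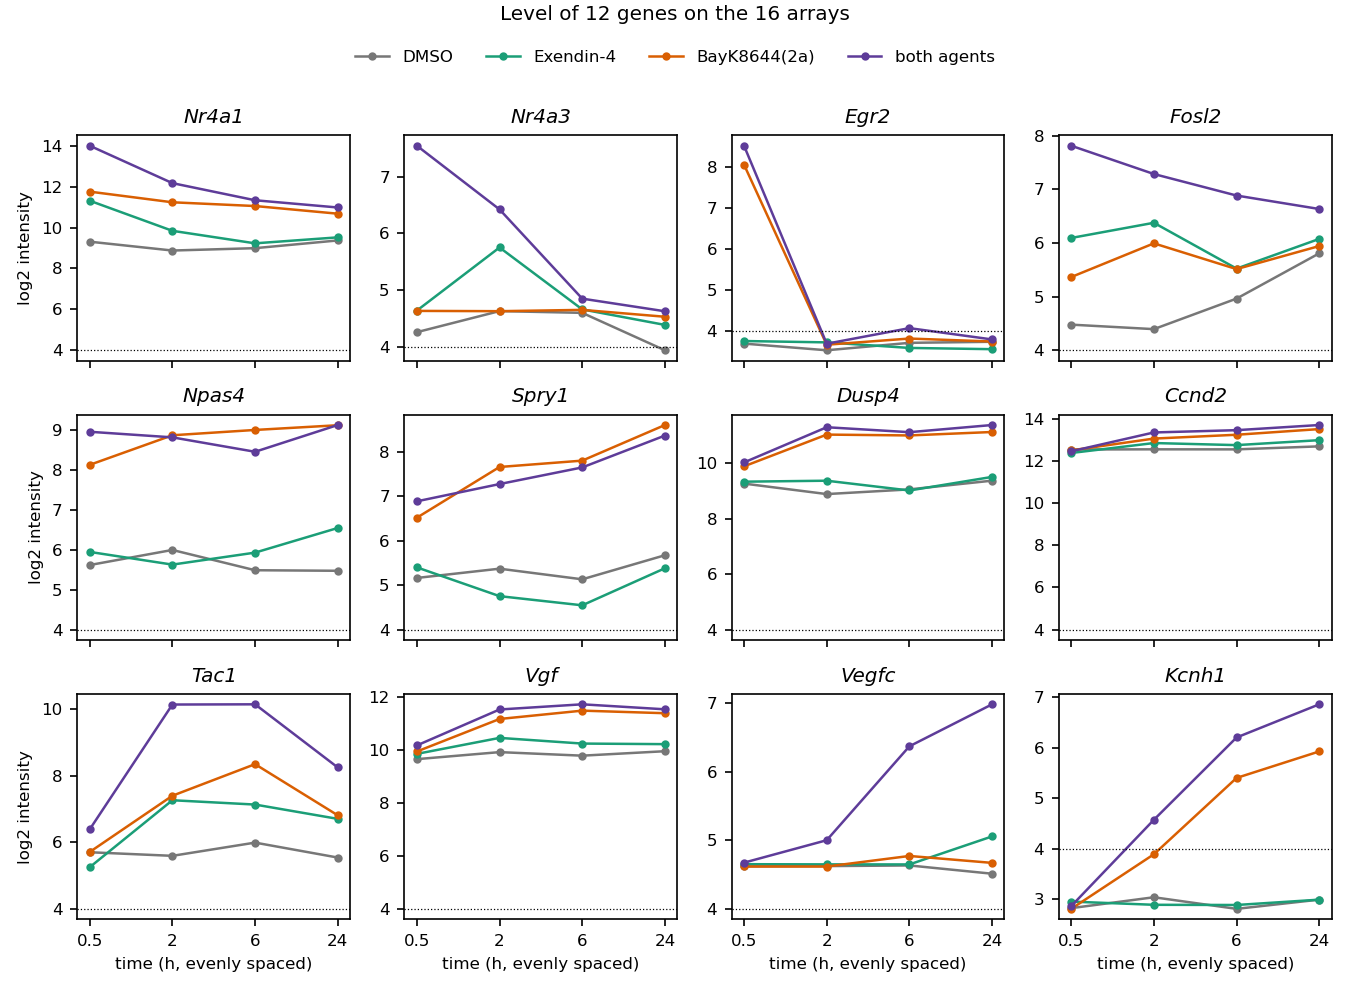
Log2 level of 12 genes (1 panel each, with its own vertical scale) against time in h for the 4 treatments, 1 array per point; the dotted line marks log2 4. Nr4a1 with both agents goes from 14.00 at 0.5 h to 10.98 at 24 h, whereas Kcnh1 goes from 2.87 to 6.86.

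At 2 h the 6 largest rises were those of Tac1, Il4, Nr4a1, Fosl2, Npas4 and Rrad, and at 24 h those of Kcnh1, Tmem212, Npas4, Il4, Cox6a2 and Pappa2. Tac1, which encodes substance P and neurokinin A, read 5.70, 5.59, 5.99 and 5.54 on DMSO and 6.39, 10.14, 10.14 and 8.25 with both agents. All 4 combination arrays were above the DMSO arrays, by 1.61-fold at 0.5 h and 23.3-fold at 2 h (difference at 2 h 4.54, SE 0.43, adjusted p = 0.00257 in limma). BayK8644(2a) alone gave 5.71, 7.40, 8.35 and 6.81 and Exendin-4 alone 5.25, 7.26, 7.13 and 6.70, so both single agents were above DMSO from 2 h and below the combination at all 4 times. Il4, a cytokine gene and NFAT target, read 4.29, 3.66, 4.01 and 3.75 on DMSO and 4.22, 7.09, 7.43 and 7.21 with both agents. It was level with DMSO at 0.5 h and 10.8-, 10.7- and 11-fold higher at each later time (adjusted p between 0.00283 and 0.00374 in limma). Il4 was the 1 gene of 12 measured calcineurin and NFAT genes that rose over the times, where 4.38% of all genes were called higher. At 0.5 h another gene of this list was called higher, beside 0.189% of all genes. Rcan1, a calcineurin inhibitor, had a difference between -0.21 and 0.01.

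Dusp4, a phosphatase of MAP kinases, read 9.27, 8.89, 9.06 and 9.38 on DMSO and 10.04, 11.31, 11.13 and 11.39 with both agents. The difference of 0.76 at 0.5 h did not pass the test, and those of 2.41, 2.07 and 2.01 at 2, 6 and 24 h did (SE 0.13, adjusted p = 6.11e-05, 0.000176 and 0.000617 in limma). Spry1, an inhibitor of receptor tyrosine kinase signalling, read 5.16, 5.37, 5.13 and 5.68 on DMSO and 6.89, 7.28, 7.65 and 8.37 with both agents. Its difference of 1.73, 1.91, 2.52 and 2.70 passed the test at all 4 times (SE 0.20, adjusted p between 0.00062 and 0.00908 in limma). Etv5, an ETS factor downstream of MAP kinase, was level at 0.5 h (0.13) and 4.52-fold higher at 2 h (2.18, SE 0.16, adjusted p = 0.00059 in limma). Of 19 measured MAP kinase feedback genes, 3, 7, 7 and 7 rose in order of time and 0 fell, against 0.189, 0.745, 0.641 and 1.19% of all genes called higher. The median was 0.14, 0.44, 0.35 and 0.43. It was higher from 2 h on than at 0.5 h, whereas that of the immediate-early list was highest at 0.5 h.

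Vgf, a neuropeptide precursor of secretory granules, read 9.65, 9.91, 9.78 and 9.95 on DMSO and 10.17, 11.52, 11.72 and 11.53 with both agents. The combination was above DMSO on all 4 arrays, and the 3 later differences of 1.61, 1.94 and 1.58 passed the test (SE 0.12, adjusted p between 0.000176 and 0.00062 in limma). Rrad, a small GTPase that restrains calcium channels, was high at 2 h alone, at 5.35 against 2.57 (SE of the difference 0.21, adjusted p = 0.00059 in limma). Its DMSO level there was under log2 4, so its fold depends partly on the floor. The related Gem was 2.85-fold higher at 0.5 h (1.51, SE 0.10, adjusted p = 0.000179 in limma) and 1.46-fold higher at 24 h.

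Of 22 measured sterol synthesis genes, 0, 7, 2 and 0 rose in order of time and 0 fell, so most did not pass at any time, and the median was 0.01, 0.45, 0.41 and 0.21. Idi1, an isomerase of the pathway, had a difference of 0.15, 1.09, 0.68 and 0.51, of which the 2 h value passed (SE 0.13, adjusted p = 0.0081 in limma). Squalene epoxidase, Sqle, had 0.13, 0.82, 0.42 and 0.17, with the 2 h and 6 h values past the threshold. Of 33 measured unfolded protein response genes, 0, 5, 6 and 5 rose in order of time and 0 fell, with medians of 0.01, 0.26, 0.29 and 0.32. Ddit3, a stress transcription factor, had 0.19, 0.64, 0.51 and 0.75, and Hspa5, the main chaperone of the endoplasmic reticulum, 0.37 at 2 h (adjusted p = 0.0082 for Ddit3 at 24 h and 0.031 for Hspa5 at 2 h in limma). Amino acid and integrated stress genes, 23 measured, had 0, 3, 3 and 5 that rose and 0 that fell, with medians of -0.03, 0.38, 0.35 and 0.33. Asns, Chac1 and Trib3 are on both of the last lists. Of all genes, 0.189, 0.745, 0.641 and 1.19% were called higher at these times.

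Late genes were low or level at first. Kcnh1, a voltage-gated potassium channel gene, read 2.83, 3.04, 2.81 and 2.99 on DMSO and 2.87, 4.57, 6.20 and 6.86 with both agents. It was near the floor on all DMSO arrays and above it with both agents from 2 h, with a difference of 3.86 at 24 h (SE 0.38, adjusted p = 0.00283 in limma). Cox6a2, a muscle-type subunit of cytochrome c oxidase, read 4.07, 4.31, 3.99 and 4.33 on DMSO and 4.32, 4.30, 5.66 and 7.06 with both agents. Only its 6 h and 24 h values stood apart from DMSO (2.73 at 24 h, SE 0.20, adjusted p = 0.00062 in limma). Pappa2, a protease that cleaves IGF binding proteins, was 6.63-fold higher at 24 h and within 1.2-fold of DMSO before (2.73, SE 0.25, adjusted p = 0.00171 in limma). With BayK8644(2a) alone, Kcnh1, Cox6a2 and Pappa2 were each also at least 2-fold from DMSO at 24 h. Cox6a2 had 0.96 with BayK8644(2a) alone at 6 h.

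Sst read 5.12, 5.09, 5.12 and 5.14 on DMSO and 5.11, 5.45, 6.08 and 7.61 with both agents. Its 24 h difference of 2.47 passed the test (SE 0.25, adjusted p = 0.00283 in limma), and BayK8644(2a) alone gave 7.37 at 24 h against 5.13 for Exendin-4 alone. Gcg had 0.03, 0.38, 0.93 and 0.64, of which the 6 h value passed (adjusted p = 0.025 in limma). In bulk RNA, more cells of a type and more RNA per cell cannot be told apart. Vim, the 1 gene measured of 18 listed mesenchymal, endothelial and leukocyte markers, had 0.14, 0.48, 0.42 and 0.95. It passed at 24 h (adjusted p = 0.0082 in limma) and over the times (0.50, SE 0.14, adjusted p = 0.0436 in limma). Of 4 measured acinar and duct markers (Bhlha15, Cela1, Cftr and Krt7), 0 were called over the times, with a median of 0.34 at 24 h. Bhlha15, a transcription factor of secretory cells, rose at 6 h, from 3.45 on DMSO, under log2 4, to 5.51 (2.06, adjusted p = 0.0155 in limma). The part of other cell types in the results was not tested.

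Ccnd2, a D-type cyclin of the G1 phase, read 12.54, 12.54, 12.54 and 12.68 on DMSO and 12.45, 13.34, 13.45 and 13.70 with both agents. It was level at 0.5 h and higher at each later time by 0.80, 0.91 and 1.01 (SE 0.08, adjusted p = 0.00326, 0.00155 and 0.000625 in limma). Ccnd1, another D-type cyclin, had -0.17, -0.75, 0.07 and 0.77, none past the threshold. Of 52 measured G2/M and mitosis genes 0 rose at any time and 5 fell at 24 h, where 0.622% of all genes were called lower, and the median was -0.01, -0.20, -0.14 and -0.27. Prc1, which organises the spindle midzone, had -0.42 at 24 h (adjusted p = 0.038 in limma), while the proliferation marker Mki67 had -0.04, -0.00, -0.10 and -0.14 and did not pass. Of 48 measured G1/S and replication genes 1 rose and 3 fell at 24 h, beside 1.19 and 0.622% of all genes, with a median of -0.14. Cdkn1a, a cell cycle inhibitor, had 0.49 at 24 h (adjusted p = 0.038 in limma).

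Genes with lower levels were fewer at each time. Abca1, which exports cholesterol from cells, read 8.12, 8.89, 8.12 and 8.79 on DMSO and 8.18, 6.92, 6.32 and 8.52 with both agents. The fall of 1.97 at 2 h and 1.79 at 6 h passed the test (SE 0.25, adjusted p = 0.00977 and 0.0167 in limma), and the levels were close again at 24 h. Txnip, a thioredoxin-binding protein induced by glucose, read 9.56, 9.29, 9.32 and 9.51 on DMSO and 8.91, 8.63, 8.69 and 8.63 with both agents. Every combination array was below every DMSO array. Nkx2-2, a transcription factor of beta cells, had 0.19, -0.25, -0.29 and -0.55, of which the 24 h value passed (adjusted p = 0.016 in limma). Of 24 measured beta-cell identity genes, 0 rose at any time and 0, 0, 1 and 3 fell in order of time, where 0, 0.16, 0.189 and 0.622% of all genes were called lower. Ins2 differed by between -0.04 and 0.13, and saturation of this very high signal was not tested. Gadd45a, a growth arrest gene, fell by 0.90 at 24 h (SE 0.10, adjusted p = 0.00423 in limma).

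**Figure D3:**
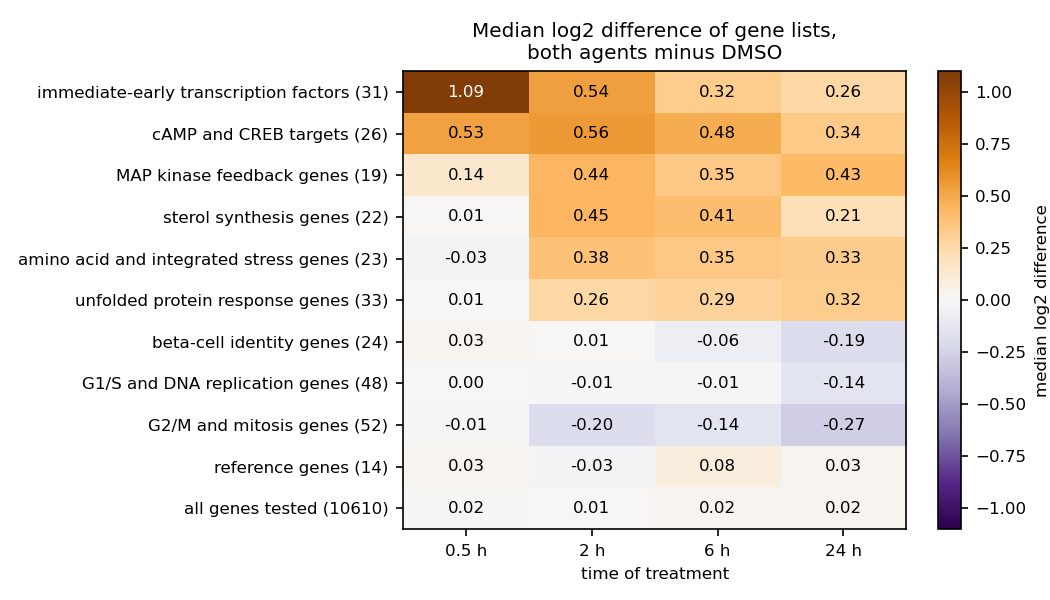
Median log2 difference between the combination and DMSO over the measured genes of each list, at each time in h, with all genes tested for comparison. The immediate-early median is 1.09 at 0.5 h and 0.26 at 24 h, and the sterol median peaks at 0.45 at 2 h.

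The order in time was also seen by following the genes chosen at each time. Genes 2-fold higher at 0.5 h had a median of 1.38 there and of 0.71, 0.56 and 0.38 at 2, 6 and 24 h. Those chosen at 2 h had 0.25 at 0.5 h, 0.96 at 6 h and 0.77 at 24 h. For those chosen at 6 h the median was 0.15 at 0.5 h, 0.94 at 2 h and 1.12 at 24 h, and for those chosen at 24 h it was 0.08, 0.57 and 0.96 at the 3 earlier times. The sets were chosen from 1 time, so the value there is set by the choice, and the values at the other times come from other arrays. Of the 34 genes of 0.5 h, 8 were still past 2-fold at 24 h (23.5%), whereas 41 of the 72 genes of 6 h were (56.9%), and 0.839% of all genes were. Of the 26 genes 2-fold lower at 6 h, 5 were still past 2-fold at 24 h (19.2%), and the difference between rises and falls was not tested.

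**Figure D4:**
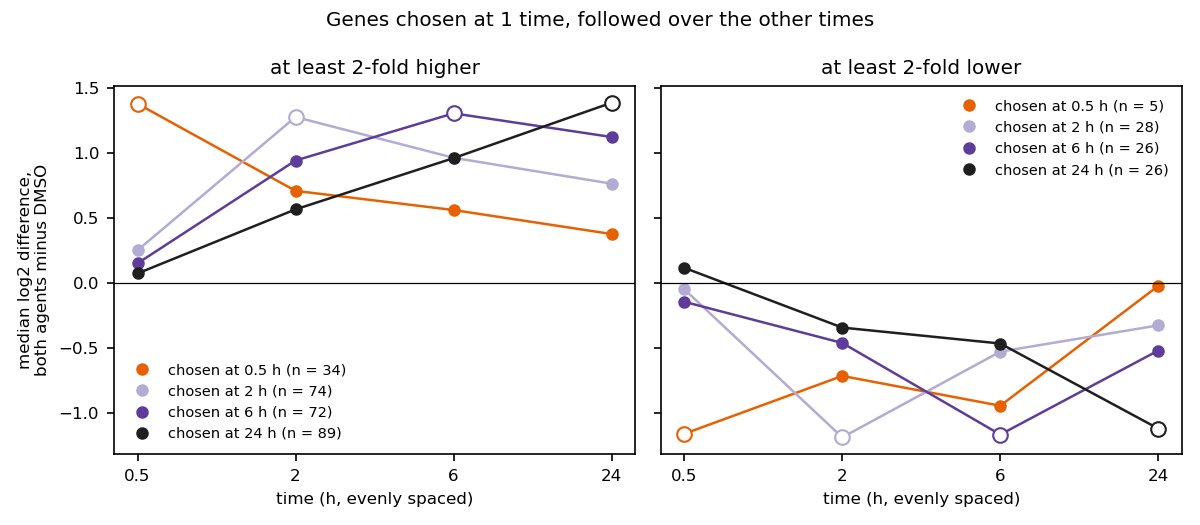
Median log2 difference between the combination and DMSO at each time in h, for genes chosen because they were 2-fold higher at 0.5, 2, 6 or 24 h. Genes chosen at 0.5 h fall to a median of 0.38 at 24 h, while genes chosen at 24 h start at 0.08 at 0.5 h.

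In all, 247 genes passed 2-fold at 1 or more times, 176 upwards and 73 downwards, with Malat1 and Phex in both counts. Of the 176, 34 first passed at 0.5 h, 62 at 2 h, 36 at 6 h and 44 at 24 h, and 116 passed at 1 time only. The 5 that passed at all 4 times were Fosb, Npas4, Nr4a1, Rgs4 and Spry1. Rgs4, a GTPase activator that dampens G-protein signalling, read 4.75, 5.76, 5.89 and 6.47 on DMSO and 7.05, 7.89, 8.25 and 8.24 with both agents. A further 19 genes passed at 2, 6 and 24 h but not at 0.5 h, among them Tac1, Il4, Dusp4, Etv5, Vgf and Kcnh1. Of the 73 downwards, 64 passed at 1 time only, 3 passed at 3 times (Csf2ra, Malat1 and Vipr2) and 0 at all 4.

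A test of whether the combination's difference changed over the times (limma, F test over 3 contrasts) called 12 genes, or 0.113%. Nr4a1, Egr2, Fos, Egr1, Klf4, Dusp1 and Tob2 were highest at 0.5 h. Ccnd2, Cox6a2, Etv5, Rrad and Dusp4 were highest later. Between 0.5 and 2 h the difference changed in 9 genes (0.0848%), rising in Ccnd2, Etv5, Rrad and Dusp4 and falling in Egr2, Fos, Nr4a1, Egr1 and Dusp1. The steps were +2.53 for Rrad (SE 0.29, adjusted p = 0.0225) and -4.66 for Egr2 (SE 0.32, adjusted p = 0.00132). From 2 to 6 h and from 6 to 24 h limma called 0 genes (259 and 389 at an unadjusted p under 0.05, fewer than the 530 that chance gives). With every probe set tested on its own the F test called 3, and with no intensity trend 6.

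Averaged over the 4 times, 740 genes differed between the combination and DMSO (6.97% called), 465 higher and 275 lower, and 640 of them had the same sign at all 4 times. Npas4 led the rises with 3.19 (SE 0.21, adjusted p = 2.41e-06 in limma), before Tac1 with 3.02 (SE 0.43, adjusted p = 0.00289) and Nr4a1 with 2.98 (SE 0.34, adjusted p = 0.000756). Smaller but steadier was Tent5a, a poly(A) polymerase gene, between 10.87 and 11.26 on DMSO and between 11.89 and 12.23 with both agents (0.90, SE 0.06, adjusted p = 2.41e-06 in limma). Id1, an inhibitor of helix-loop-helix factors, gave 1.05 (SE 0.07, adjusted p = 5.52e-06 in limma). Among the falls were Cntfr, a ciliary neurotrophic factor receptor (-0.97, SE 0.22, adjusted p = 0.0241), Lmnb1, a nuclear lamina gene (-0.78, SE 0.14, adjusted p = 0.0108), and Txnip (-0.70, SE 0.08, adjusted p = 0.000756), all in limma.

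The number called over the times rested on single arrays. Without the combination array of 0.5 h it was 2219, 1163 without the DMSO array of 0.5 h, and 1366 when the 24 h Exendin-4 array was left out. Without the DMSO arrays of 2, 6 and 24 h in turn it was 75, 92 and 331, without the combination arrays of 2, 6 and 24 h in turn 95, 105 and 111, and it was 492 when the 2 h Exendin-4 array was left out. Leaving out all 4 arrays of a time gave 2017 without 0.5 h, 20 without 2 h, 25 without 6 h and 105 without 24 h. With the 8 combination and DMSO arrays alone it was 17. Of the 740, 63 were called with each of the 16 arrays left out in turn. Only the genes named as largest over the times and those of the fixed list were followed by name through these settings. Of them 29 were called over the times. Among the 29, Dusp6, Npas4, Nr4a1, Spry1 and Txnip passed in all 20 settings with an array or a time left out. Genes named for other reasons, such as Tent5a and Id1, were not followed by name. With the 8 arrays alone, paired by time, 7 of the 29 kept the call (Chd7, Dusp6, Nlgn1, Npas4, Rgs4, Spry1 and Txnip). There limma's adjusted p was 0.068 for Nr4a1 and Vgf, 0.058 for Dusp4, 0.089 for Fosb and Fosl2, 0.097 for Tac1, 0.110 for Egr1, 0.102 for Lmnb1 and 0.114 for Cntfr. Tac1, Egr1 and Vgf lost the call without the 2 h or the 6 h arrays (adjusted p = 0.096 and 0.081 for Tac1), and Fosb, Fosl2 and Dusp4 without the 2 h arrays (adjusted p = 0.058 for each). Lmnb1 kept the call in 17 of the 20 settings, Cntfr in 13 and Gcg in 11.

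Over the times the lists were called in these numbers: 16 of 31 immediate-early genes higher, 11 of 26 cAMP and CREB targets, 8 of 19 MAP kinase feedback genes, 15 of 33 unfolded protein response genes, 12 of 23 amino acid and integrated stress genes, 6 of 22 sterol genes and 6 of 14 secreted peptides and cytokines, with 0 lower in each. Across all genes 4.38% were called higher and 2.59% lower. The reverse held for G2/M and mitosis genes, of which 9 of 52 were lower and 0 higher, with a median of -0.14 against 0.02 for all genes. Of 14 reference genes 1 was called, Pgk1 (0.17, adjusted p = 0.037 in limma). The remaining lists had between 0 and 5 called higher and between 0 and 3 lower.

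How much of the joint response was already there with 1 agent was read from the single-agent arrays. Against DMSO over the times, limma called 740 genes with the combination, 89 with BayK8644(2a) alone and 0 with Exendin-4 alone. As shares of all genes these were 6.97, 0.839 and 0%. Of the 89, 51 were higher (0.481%) and 38 lower (0.358%). The combination differed from Exendin-4 alone over the times in 200 genes (1.89% called), 142 higher (1.34%) and 58 lower (0.547%). It differed from BayK8644(2a) alone in 0 genes in limma, and 1372 genes, against 530 by chance, were under 0.05 before adjustment. Without the 0.5 h arrays 51 were called. For the Exendin-4 comparison the count was 1583 without the 0.5 h arrays, 11 without those of 2 h, 11 without 6 h and 31 without 24 h. Tent5a stood 0.84 above Exendin-4 alone (SE 0.06, adjusted p = 6.01e-06 in limma) and 0.19 above BayK8644(2a) alone (SE 0.06, adjusted p = 0.254). For Npas4 these differences were 2.82 (SE 0.21, adjusted p = 7.84e-06) and 0.06 (SE 0.21, adjusted p = 0.917) in limma. Fosl2 had more even ones, 1.14 (SE 0.30, adjusted p = 0.067) over Exendin-4 and 1.45 (SE 0.30, adjusted p = 0.152) over BayK8644(2a) in limma. The comparisons of the combination with a single agent share the combination arrays, and those against DMSO share the DMSO arrays.

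BayK8644(2a)'s effect could be read on separate arrays without and with Exendin-4. Of the genes 2-fold higher with it alone, 13 of 18 at 0.5 h, 27 of 62 at 2 h, 33 of 43 at 6 h and 49 of 61 at 24 h were also 2-fold higher when it was added to Exendin-4. As shares of the genes 2-fold higher when it was added to Exendin-4 these were 46.4, 41.5, 44.6 and 32.7%. Of all genes, 0.264, 0.613, 0.697 and 1.41% were 2-fold higher when it was added to Exendin-4. Of the genes 2-fold lower with it alone, 0 of 2, 3 of 17, 3 of 39 and 5 of 46 were also lower then, against 0.00943, 0.198, 0.198 and 0.358% of all genes. For Exendin-4 the numbers were 2 of 8, 7 of 20, 1 of 8 and 3 of 31 higher and 1 of 7, 2 of 9, 0 of 16 and 0 of 35 lower. Of all genes, 0.0943, 0.236, 0.198 and 0.273% were 2-fold higher and 0.0566, 0.368, 0.0943 and 0.0471% lower when Exendin-4 was added to BayK8644(2a). Across genes, which are not independent replicates, the effect of BayK8644(2a) with Exendin-4 correlated with its effect without it at r = 0.32, 0.33, 0.47 and 0.40 in order of time (n = 10610 genes). Spearman's rho was 0.04, 0.25, 0.37 and 0.29, so that at 0.5 h the ranks were nearly unrelated. For Exendin-4 r was 0.17, 0.03, 0.10 and -0.16 and rho 0.06, 0.05, 0.17 and -0.15.

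Whether the agents together gave more than the sum of their separate effects was tested as an interaction, the combination minus each single agent plus DMSO, over the 4 times. Limma called 0 genes, with a smallest adjusted p of 0.71; before adjustment 648 were under 0.05, against 530 by chance. The interaction was positive in 67.0% of genes, with a median of 0.05 over the times and of 0.10 at 24 h. At 24 h 147 genes had an interaction of 1 or more, compared with 13, 56 and 72 at 0.5, 2 and 6 h. An interaction of -1 or less was found in 12, 63, 29 and 47 genes in order of time. The Exendin-4 array of 24 h, which enters this difference, also held 66 genes 2-fold from DMSO, against between 15 and 29 at the earlier times.

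Genes that reached 2-fold only when both agents were present numbered 20 at 0.5 h, 51 at 2 h, 58 at 6 h and 47 at 24 h, which is 51.3, 50, 59.2 and 40.9% of the genes past 2-fold with the combination. A gene was counted where the combination was at least 2-fold from DMSO and neither single agent was 2-fold from DMSO, in either direction, at that time. Of them 18, 33, 39 and 38 were higher and the rest lower. In 0, 8, 10 and 5 of them the lower of the DMSO and combination levels was under log2 4. Counted by the same kind of rule, genes past 2-fold with BayK8644(2a) alone and not with the combination or Exendin-4 numbered 4, 28, 41 and 38, and for Exendin-4 alone 7, 7, 16 and 43. In all, 156 genes counted at 1 or more times, 138 of them at 1 time, 16 at 2 times and Csf2ra and Magea5 at 3.

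Many of these lay near the limit of 2-fold. In 7, 11, 21 and 8 genes, in order of time, the 2 separate effects added up to 2-fold. The number that lay 2-fold beyond the larger single effect was 3, 12, 10 and 5. Near the limit, 8, 21, 21 and 26 of the genes counted had a combination difference between 1 and 1.1, and another 9, 27, 27 and 44 genes with no single agent at 2-fold fell just short, with 0.9 to 1. At 0.5 h the smallest counted were Lin7a, Slc5a5 and AA386476, and the largest not counted were Maff, Stc1 and Trib1. Of the genes counted, 5, 14, 10 and 19 passed the test of the combination against DMSO at that time. Of all genes, 0.189, 0.905, 0.829 and 1.81% were called. The counted genes were chosen on the same difference that was tested, so these passes are set in part by the choice. In 15, 39, 39 and 41 no single-agent value was past 2-fold in the same direction at any time.

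**Figure D5:**
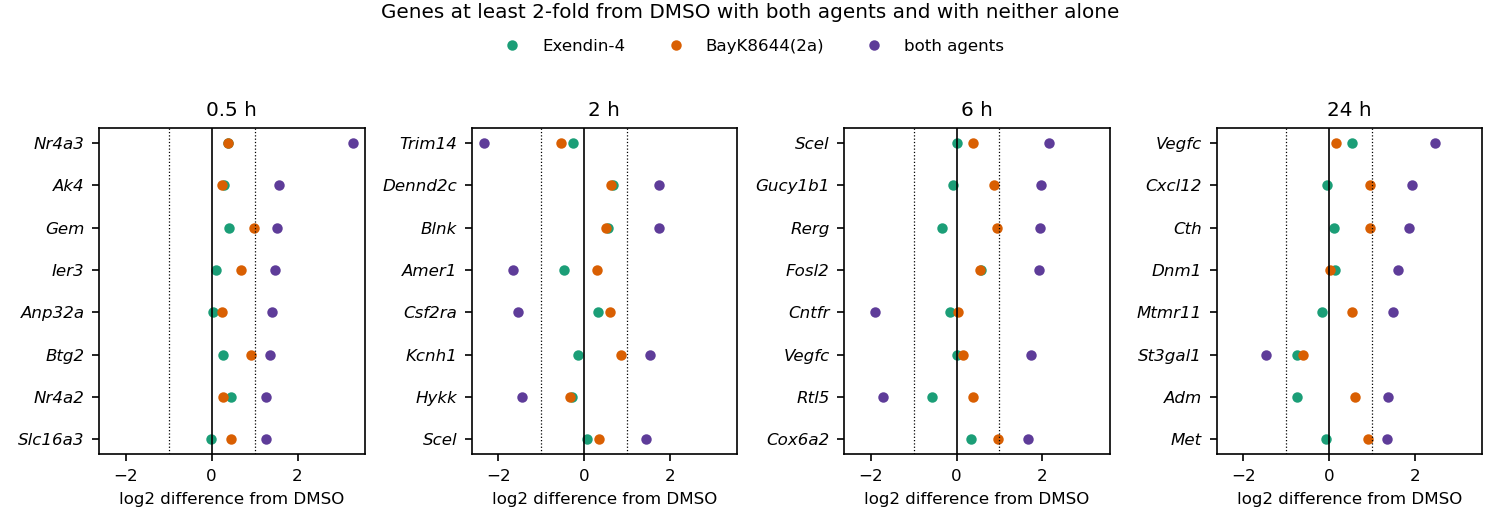
Log2 difference from DMSO of the combination and of each agent alone for the 8 genes with the largest difference among those 2-fold only with both agents, at each time in h. Nr4a3 at 0.5 h lies at 3.28 with both agents and at 0.37 and 0.38 with a single agent.

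Nr4a3 read 4.26 on DMSO, 4.63 with BayK8644(2a), 4.64 with Exendin-4 and 7.54 with both agents at 0.5 h. The combination array alone was high at that time, 9.72-fold above DMSO, and 2.53 above the sum of the single effects. At 2 h the values were 4.63, 4.63, 5.75 and 6.42 in the same order, so Exendin-4 alone was also above DMSO by then, and at 6 and 24 h all lay between 3.94 and 4.85. Its 0.5 h difference did not pass the test (3.28, SE 0.64, adjusted p = 0.209 in limma). The error of this test is the departure of the arrays from additive effects, pooled over the times. Its relative Nr4a2 had 1.26 at 0.5 h (adjusted p = 0.052 in limma) and between -0.27 and 0.12 later. Of 31 immediate-early genes 6 counted at 0.5 h, among them Ier3, Atf3 and Btg2, beside 20 of all 10610 genes. With the combination, 16 of the 31 were at least 2-fold higher at 0.5 h, beside 34 of the 10610.

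Gem read 10.11 on DMSO, 11.09 with BayK8644(2a), 10.52 with Exendin-4 and 11.62 with both at 0.5 h. Here BayK8644(2a) fell just short of 2-fold at 0.99, and the interaction was 0.11. Atf3, a stress-induced transcription factor, was alike, with 1.23 for the combination, 0.87 and 0.18 for the single agents and an interaction of 0.17. Ldha, a lactate dehydrogenase, counted at both 0.5 and 2 h, with 1.17 and 1.11 for the combination against 0.51 and 0.53 for BayK8644(2a). Ier3, an early gene linked to cell survival, counted at 0.5 and 6 h (1.48 and 1.57), with BayK8644(2a) at 0.68 and 0.72.

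At 2 h, Trim14, an adaptor of innate immunity, was the largest, at 5.74 on DMSO, 5.20 and 5.49 with the single agents and 3.40 with both. The low value is under log2 4, and at 0.5, 6 and 24 h the combination array was within 0.36 of DMSO. Blnk, an adaptor of B-cell receptor signalling, was 1.74 higher at 2 h and 1.31 at 6 h with both agents, and at 24 h BayK8644(2a) alone was past 2-fold too (8.07 against 6.90). Sv2c, a synaptic vesicle protein gene, read 5.20 on DMSO, 5.28 and 5.27 with the single agents and 6.38 with both at 2 h, and 5.02, 6.01, 5.32 and 6.65 at 6 h. Id1 counted at 2 and 6 h (1.19 at each), with BayK8644(2a) alone at 0.72 and 0.90. Idi1 and Msmo1 of the sterol pathway counted at 2 h, with 1.09 and 1.02. Relb, Nfkb2 and Rel, which encode NF-kappaB subunits, also counted and were picked out after their values were seen. Relb had 1.03 at 2 h and Nfkb2 1.07 at 6 h, with BayK8644(2a) alone close behind at 0.91 and 0.98. Rel had 1.62 at 6 h, where BayK8644(2a) gave 0.23 and Exendin-4 0.02.

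Vegfc, a growth factor of lymphatic vessels, lay between 4.51 and 5.06 on 14 arrays and above 6 on 2, those of both agents at 6 and 24 h. Its DMSO levels were 4.62, 4.62, 4.63 and 4.51, and those with both agents 4.67, 5.00, 6.37 and 6.98. With BayK8644(2a) alone it read 4.62, 4.62, 4.77 and 4.67 and with Exendin-4 alone 4.65, 4.65, 4.65 and 5.06. The combination was 3.34-fold above DMSO at 6 h and 5.55-fold at 24 h, and 1.58 and 1.77 above the sum of the single effects. Over the times its difference was 1.16 (SE 0.31, adjusted p = 0.0435 in limma), and its interaction of 0.93 (SE 0.29) did not pass (adjusted p = 0.78).

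Cntfr was lower at 6 h with both agents, at 5.00 against 6.89 on DMSO (adjusted p = 0.133 in limma), while the single agents read 6.92 and 6.73. At 24 h the difference was -0.91, just short of 2-fold, and again neither single agent was below 6.92. Csf2ra, a subunit of the GM-CSF receptor, counted at 2, 6 and 24 h, with -1.54, -1.23 and -1.08 for the combination. BayK8644(2a) alone read 8.33, 7.68 and 7.70 against 7.73, 7.94 and 8.53 on DMSO, so at 24 h it was 0.83 below DMSO by itself. None of the 3 differences passed the test (adjusted p between 0.37 and 0.42 in limma).

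At 24 h, Cth, which makes cysteine from cystathionine, read 6.83 on DMSO, 7.80 with BayK8644(2a), 6.95 with Exendin-4 and 8.70 with both (1.86, SE 0.30, adjusted p = 0.0234 in limma). Cxcl12, a chemokine, had 1.93, with 0.95 for BayK8644(2a) and -0.05 for Exendin-4, from a DMSO level of 3.22, near the floor. For Oxtr, the oxytocin receptor, Exendin-4 gave the larger single effect, at 0.87 against 0.28 at 6 h and 0.56 against 0.01 at 24 h, beside 1.03 and 1.29 for the combination. Ccnd2 counted at 24 h with 1.01, against 0.82 and 0.29 for the single agents, which add up to more than the combination. Lmnb1 had -1.30 at 24 h, with -0.71 and -0.57.

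As a view on other arrays, the interaction of the genes counted at 1 time was read at the 3 other times. At the time of counting its median, signed by the direction of the combination, was 0.43, 0.50, 0.42 and 0.59. Averaged over the others it had a median of 0.25, 0.16, 0.18 and 0.09 for the genes that were higher. It was positive there in 16 of 18, 28 of 33, 29 of 39 and 25 of 38, while it was positive in 68.1, 66.1, 64.3 and 57.7% of all genes. For the genes that were lower the median over the other times was -0.05, 0.20, -0.32 and -0.28, and it was negative in 1 of 2, 6 of 18, 15 of 19 and 7 of 9, so at 2 h it ran against the direction of the combination. The value at the time of counting is set in part by the choice.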

How the data were processed

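Gene expression was measured on 16 one-colour Affymetrix arrays, 1 for each of 4 treatments at each of 4 times. Per the labels' protocols, RNA was isolated on RNeasy columns, checked on an Experion instrument and amplified once with a biotin label. The authors deposited linear intensity values. GCRMA, which uses probe sequence to correct background, normalizes arrays to a common distribution and summarises probes, is named per the submitters' processing notes, with its version not given in the sources used here. Although the deposited values were described as log2 for this comparison, they are linear, so log2 was taken, with no pseudocount. The number of arrays limits the precision.

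The platform annotation named the probe sets: 34958 had 1 symbol, 932 several and 9211 none, and the last 2 kinds were kept out of the gene tests. The probe set with the highest mean stood for a gene. Of 25 named genes with more than 1 probe set above the filter, the probe sets differed in sign in 7 (Amer1, Anp32a, Marf1, Nr4a2, Ptar1, Rab36 and Rbm26). Probe sets of the same sign could differ in size. For Chd7, another probe set of similar mean level (9.24 against 9.33) gave -0.05 over the times, against -0.66 for the one used. Those of Ccnd2 ran from 0.08 to 0.66, the value of the one used.

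Linear models used limma 3.58.1 in R 4.3.3 with a moderated variance that followed intensity, and Benjamini-Hochberg adjustment over 10610 genes and a threshold of 0.05. The fit over the times held time and treatment on all 16 arrays (9 residual degrees of freedom). The fit at each time had an effect of each agent for every time and assumed that these add up (4 residual degrees of freedom), so that its error is the departure from additivity pooled over the times. The interaction was tested over the 4 times (3 residual degrees of freedom). SE is limma's standard error. Each fit was tested on simulated data. Counts past 2-fold carry no test.

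The named genes were the 12 largest rises and 8 largest falls over the times, the 6 and 4 largest at each time, the 6 largest at each time among genes 2-fold only with both agents and all that counted at 2 or more times, the leading genes of the other contrasts, and a fixed list of genes of calcium, cAMP, cell cycle and islet biology; a gene of a list may be named with its list. The genes, lists and alternatives were chosen with earlier results of these data known, so no list is independent evidence. The alternatives were another rule for probe sets, other filters, no intensity trend, no time block, the 8 arrays alone, a pseudocount and leaving out arrays and times.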

Additional observations from a re-analysis of the deposited data

Results flagged for a closer look

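Txnip at 24 h (-0.88) stood apart from its other 3 times, which lay between -0.63 and -0.66. It was 1 of 20 genes looked at for a time that stands apart from the others, and chance alone gives about 1 in 20.

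In 12 genes the difference between the combination and DMSO was not the same at the 4 times in limma's F test. The adjusted p was 0.000906 for Nr4a1, 0.00114 for Egr2 and 0.00128 for Fos. It was 0.0248 for Ccnd2, 0.0248 for Cox6a2 and 0.0248 for Klf4. For Egr1 it was 0.0322, for Etv5 0.0322 and for Rrad 0.0322. For Dusp4 it was 0.0344, for Dusp1 0.0405 and for Tob2 0.0405.

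Among 1974 probe sets with no gene symbol above the filter, 12 were called in the combination over the 4 times in limma (0.608%), 9 higher and 3 lower.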

How the results depend on the processing

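The number of genes called over the 4 times, 740, was 17 with the 8 combination and DMSO arrays alone, paired by time, 26 with no time block, 272 with no filter and 419 with no intensity trend. With arrays or times left out it lay between 20 and 2219. At 0.5 h the leave-outs gave between 18 and 21, at 2 h between 40 and 153, at 6 h between 33 and 324 and at 24 h between 53 and 517. With every probe set on its own, 63 were called at 2 h, 41 at 6 h and 77 at 24 h, and with no intensity trend 57, 38 and 81; no filter gave 119 at 24 h. The F test over the times called 3 with every probe set and 6 with no trend. Against BayK8644(2a) alone every probe set on its own gave 2, and the leave-outs between 0 and 51. Against Exendin-4 alone there were 44 with no filter, 98 with no trend and 17 with no time block, and the leave-outs gave between 11 and 1583. The interaction stayed at 0 in the leave-outs. Past 2-fold, every probe set gave 161, 250, 305 and 303 in order of time, and a pseudocount of 16 gave 60, 62 and 70 at 2, 6 and 24 h. Only with both agents, every probe set gave 55, 135, 136 and 157, and the pseudocount 29, 32 and 30 at 2, 6 and 24 h. Of the genes named, Ccnd1 (-0.02 over the times) lay between -0.28 and 0.22 in the leave-outs, with the sign turned in 6, and Nr4a2 (0.28) between -0.050, without the 0.5 h arrays, and 0.46; neither was called. The labels carry no replicate numbers, and arrays were paired only by time, as the block. The low signal of genes under log2 4 limits how well their folds are known.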

Other observations

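The arrays also held genes whose joint value was smaller than the sum of the single effects. Etv4, an ETS factor, had a combination difference of 2.80 and 2.50 at 6 and 24 h, with levels of 5.59 and 5.99, while BayK8644(2a) alone gave 6.37 and 6.34. Its interaction over the times was -0.86 (SE 0.20, adjusted p = 0.71 in limma). Max, the partner of Myc, lay between 9.94 and 10.11 with BayK8644(2a) alone at 2, 6 and 24 h. With both agents it read 9.31, 8.82 and 8.64, and DMSO gave 9.39, 9.20 and 9.57. Its interaction of -0.75 (SE 0.13) did not pass (adjusted p = 0.71 in limma). Dgka, a diacylglycerol kinase, had an interaction between -0.95 and -0.56 at the 4 times (adjusted p = 0.71 in limma over the times).

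Ppargc1a, a transcriptional coactivator, was high at 2 h with Exendin-4 alone (5.76) and with both agents (5.54), and not with BayK8644(2a) alone (3.94) or DMSO (3.42). Crem had the same order at 2 h, at 8.44 and 8.06 against 7.02 and 6.78. Pde10a, a phosphodiesterase, had 10.17 and 10.11 against 9.48 and 8.93. In these 3 genes, chosen after their values were seen, the combination at 2 h was at or below Exendin-4 alone.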
